A study of Homo sapiens with 2 samples.

Results

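Chromatin accessibility around 6 genes of the Notch and RBPJ axis was examined in GM12878, an established human line of B cells immortalised by Epstein-Barr virus. The genes were RBPJ, NOTCH1, NOTCH2, HES1, CR2 and FCER2. The members are the accessible regions whose midpoint fell within 50 kb of a gene's span in hg19, a rule that uses position and no measured value. It found 15 regions of the 23612 in the deposited list. The 2 untreated libraries came from separate cultures, each with 50000 cells, and form 1 group without a comparison group. They were assayed by ATAC-seq, in which a transposase cuts accessible DNA and adds sequencing adapters to it. The authors deposited 1 list for both cultures, so each value below has no replicate error, no test was possible, and the depth is unknown. GM12878 is 1 line, and both cultures carry Epstein-Barr virus.

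RBPJ is the DNA-binding protein through which Notch receptors act. A ligand on a neighbouring cell releases the intracellular part of NOTCH1 or NOTCH2, which enters the nucleus, binds RBPJ and switches on genes such as HES1. Epstein-Barr virus uses the same protein, since its nuclear antigen EBNA2 does not bind DNA directly and is brought to DNA by RBPJ. CR2 (CD21), the complement receptor by which the virus enters B cells, and FCER2 (CD23), the low-affinity IgE receptor of activated B cells, are known B-cell genes that respond to EBNA2.

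The promoter sequences of 4 genes are shown because RBPJ recognises a short motif, and because these genes differ in whether a listed region covered their start. Each is the run of 250 bases that ends just before a start site in RefSeq (GRCh38.p14), 5′ to 3′ in the direction of the gene. The windows are chr4:26319496-26319745 (plus strand) for the second of the 5 RBPJ promoters that RefSeq lists, chr3:194135898-194136147 (plus) for HES1, chr19:7702132-7702381 (minus) for the first of the 2 FCER2 promoters, and chr1:207454078-207454327 (plus) for CR2. Capitals mark the core of the RBPJ motif, TGGGAA, or its reverse complement.
RBPJ: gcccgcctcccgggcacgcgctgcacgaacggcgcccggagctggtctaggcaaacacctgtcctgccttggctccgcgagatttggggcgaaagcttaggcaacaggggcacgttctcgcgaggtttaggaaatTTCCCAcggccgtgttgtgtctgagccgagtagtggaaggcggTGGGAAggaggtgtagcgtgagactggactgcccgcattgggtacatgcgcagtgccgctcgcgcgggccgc
HES1: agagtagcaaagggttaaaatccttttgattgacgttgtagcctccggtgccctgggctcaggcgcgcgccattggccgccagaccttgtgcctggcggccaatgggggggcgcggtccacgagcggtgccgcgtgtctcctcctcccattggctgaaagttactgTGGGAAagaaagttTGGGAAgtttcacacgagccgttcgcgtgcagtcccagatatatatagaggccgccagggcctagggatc
FCER2: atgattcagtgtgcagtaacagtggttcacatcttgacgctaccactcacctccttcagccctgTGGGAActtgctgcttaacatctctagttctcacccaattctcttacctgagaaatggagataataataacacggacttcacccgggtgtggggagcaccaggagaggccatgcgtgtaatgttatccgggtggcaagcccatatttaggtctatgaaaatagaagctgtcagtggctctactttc
CR2: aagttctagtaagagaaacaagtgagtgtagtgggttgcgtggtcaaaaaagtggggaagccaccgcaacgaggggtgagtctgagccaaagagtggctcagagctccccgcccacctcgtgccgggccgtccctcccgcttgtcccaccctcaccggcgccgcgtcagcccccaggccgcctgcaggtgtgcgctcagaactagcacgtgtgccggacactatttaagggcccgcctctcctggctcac

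All 6 genes matched a RefSeq promoter, and the 7-letter motif GTGGGAA, which contains the core, was searched on both strands of their 11 promoters. The RBPJ promoter shown held 2 matches, 1 on the gene's strand from 73 to 67 bases before the start and 1 on the opposite strand from 115 to 109 bases before it. It was chosen for print because of these matches, and which of the 5 RefSeq starts is the start used in hg19 was not determined. The other 4 RBPJ promoters held no match. HES1 held 1 match from 85 to 79 bases before the start, and a second match to the core alone from 70 to 65. FCER2 held 1 match in its first promoter, from 187 to 181 bases before the start, and only a core match in its second. No match to either form was found in the windows of NOTCH1, NOTCH2 or CR2. Among all 35116 RefSeq promoters, 5.43% held GTGGGAA and 20.8% held the core, so a core match is common. Counted by gene, with a match in any promoter, the shares were 6.69% and 24.6% of 27305 gene symbols. A gene with several promoters, such as RBPJ, has more chances of a match. A match describes letters in a GRCh38 window and was not placed on a region of the hg19 list.

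Searches for other motifs gave few matches. The paired half-sites of EBF1, a factor that specifies B cells, were searched as CCCNNGGG, which reads the same on both strands. They occurred 3 times in the NOTCH2 promoter, of which 2 overlap, and once in the fourth RBPJ promoter, against 17.1% of all promoters with any match. The ETS motif GGAAGT, recognised by factors such as PU.1, occurred once, in HES1, where it shares letters with the second core match, and in 19.5% of all promoters. The NOTCH1 promoter was the richest in G and C, at 76.0%, and held 33 CpG dinucleotides. The first FCER2 promoter held 5 CpGs at 47.6% G and C, and its second 4 CpGs at 50.8%. The median over all promoters was 58.0% and 11 CpGs.

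Accessible regions were listed at 5 of the 6 genes, and 10 of the 15 lay at RBPJ and HES1, which had 5 each. With a limit of 10 or 25 kb HES1 kept 3 regions and RBPJ 4, and on the gene spans alone 1 and 3. CR2 kept 1 at each of these limits, and NOTCH1 kept 2 at 25 kb, 1 at 10 kb and 0 on its span. At 50 kb, NOTCH1 and CR2 had 2 regions each, NOTCH2 had 1, and FCER2 had 0. A region covered the start site of 4 genes, RBPJ, NOTCH1, NOTCH2 and CR2, but not that of HES1 or FCER2. Of the others, 7 lay upstream, 3 within a gene span and 1 downstream. The windows together measured 0.976 Mb and held 15.4 regions per Mb, against 7.72 per Mb over chromosomes 1 to 22 and X. These windows were laid around known genes, whereas the average includes stretches without genes or sequence. The 2 densities are therefore not like for like.

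**Figure D1:**
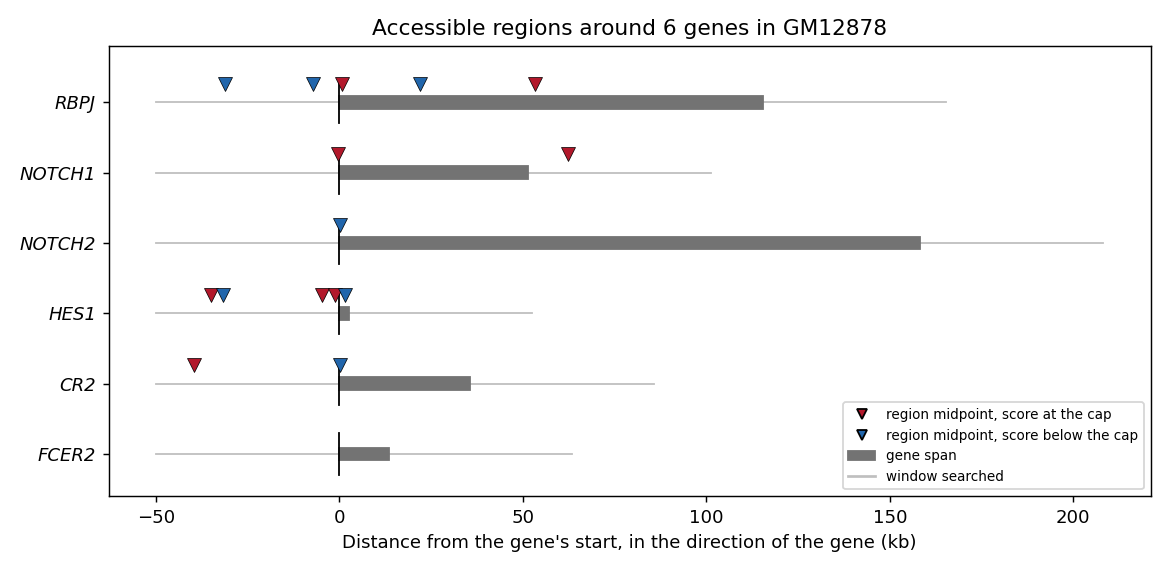
Positions of the 15 regions relative to the start site of each gene, in kb in the direction of the gene. Triangles are region midpoints, red for a score at the cap of 1000 and blue below it, dark bars are gene spans and light lines the windows searched. RBPJ and HES1 carry 5 regions each, and the FCER2 window carries 0.

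RBPJ, which encodes the shared DNA-binding partner of Notch and EBNA2, carried the widest of these regions. It lay over the start site (chr4:26320482-26323509, hg19), was 3028 bp wide and reached from 850 bp upstream to 2177 bp downstream of the start, with a score at the cap of 1000. Only 0.284% of the regions in the whole list were at least as wide. It was the 1 member of 2000 bp or more, a width reached by 3.31% of the list. A second region at the cap, 641 bp wide, lay 52.9 kb into the gene (chr4:26374193-26374833).

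The other 3 RBPJ regions scored below the cap. Their widths were 642 bp at 30.8 kb upstream, 590 bp at 6.88 kb upstream and 355 bp at 21.7 kb downstream of the start. Their scores, in the same order, were 839, 662 and 558. The last of these (chr4:26343020-26343374) had both the lowest score and the smallest width of the 15 regions. Just 2.09% of the list scored lower and 1.65% was as narrow or narrower. No region was listed over the last 61.9 kb of the span. RefSeq gives RBPJ a length of 329.683 kb in GRCh38, against 115.421 kb for the span used here, so the 2 upstream regions may lie inside longer RBPJ transcripts.

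HES1, a transcriptional repressor and a standard Notch target, showed another arrangement: 5 regions in the shortest window, but none over the start. The nearest, at the score cap and 1111 bp wide (chr3:193852028-193853138), ended 793 bp before the start. The next began 1.16 kb after it, within the gene (chr3:193855095-193855909), was 815 bp wide and scored 686. The start thus fell in an interval of 1.956 kb between 2 regions. RefSeq gives the gene 2.585 kb in GRCh38 and the span here is 2.471 kb, so the start in the 2 builds may differ slightly. The promoter with the RBPJ matches, if it lies at the hg19 start, falls in this interval.

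The remaining HES1 regions lay upstream, with 26.117 kb between a distal pair and the region nearer the gene. One of 723 bp at the cap ended 4.47 kb before the start, and it was 2.568 kb from its neighbour. Farther out, a region of 944 bp at the cap and 1 of 603 bp with a score of 704 formed a pair 2.528 kb apart, at 34.4 and 31.3 kb upstream. The second of these (chr3:193822017-193822619) was the narrowest of the HES1 regions, while the lowest score was that of the region inside the gene. The next coding gene upstream in RefSeq is LOC102724877, and to which gene the distal pair belongs was not tested.

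The Notch receptor genes carried 2 regions at NOTCH1 and 1 at NOTCH2, and none lay wholly inside either gene. At NOTCH1 a region of 1011 bp at the score cap (chr9:139440235-139441245) lay almost wholly upstream, since just 4 of its bases fell inside the gene span. A start placed a few bases farther into the gene would no longer be covered, while 1 placed up to 1007 bp upstream still would be. RefSeq gives the gene 51.616 kb in GRCh38 and the span here is 51.343 kb, so the start in the 2 builds may differ. The other NOTCH1 region, also at the cap and 1317 bp wide (chr9:139377234-139378550), lay 10.3 kb past the gene's end, towards SEC16A, the next coding gene in RefSeq. Whether it belongs to NOTCH1 or to SEC16A was not tested. No region was listed inside the NOTCH1 span beyond those 4 bases. At NOTCH2 the only region was 708 bp wide (chr1:120611710-120612417), covered 100 bp before and 607 bp after the start, and scored 753. The rest of the NOTCH2 span, the longest of the 6 at 158.142 kb, held none. The name of the list can be read as naming a filter for mappability. Whether such a filter removed regions from this span was not tested.

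**Figure D2:**
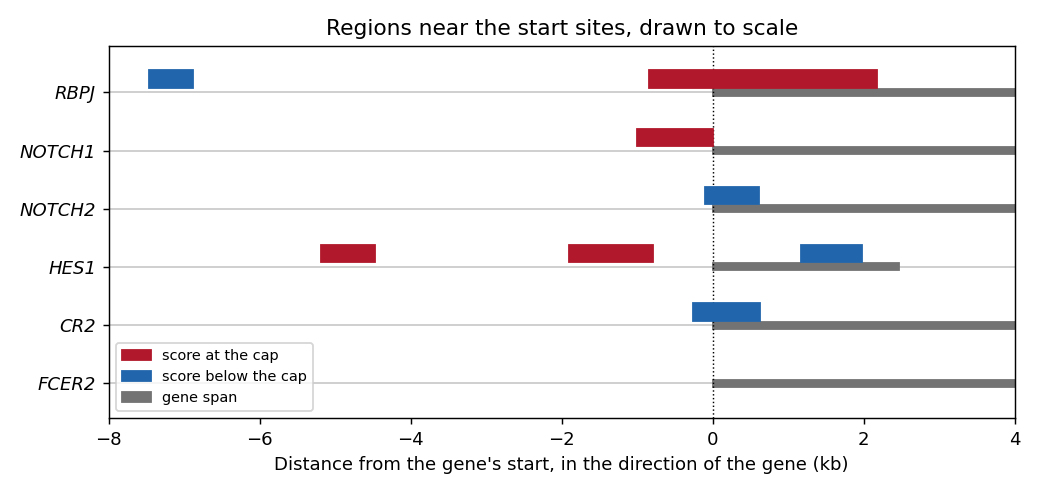
Regions between 8 kb upstream and 4 kb downstream of each start site, drawn to scale in kb along the direction of the gene, red at the score cap and blue below it, with the gene span as a dark bar. The RBPJ region extends across the start, the NOTCH1 region stops at it, and the HES1 start lies between 2 regions.

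CR2 and FCER2, the genes of a complement receptor and an IgE receptor of B cells, also differed from each other. CR2 had a region over its start (chr1:207627389-207628269), 881 bp wide, from 256 bp upstream to 624 bp downstream, with a score of 647. That score was the lowest of the 4 regions over a start, and 11.99% of the list scored lower. A narrower region of 631 bp at the cap (chr1:207587783-207588413) lay 39.2 kb upstream, towards CD55, a complement regulator and the next coding gene in RefSeq. Whether it belongs to CR2 or to CD55 was not tested. No region was listed from the start of CR2 to 215.8 kb beyond it, except the one at the start itself, so the rest of the gene held none.

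FCER2 had no region in its window, and the nearest lay 105.3 kb upstream and 166.2 kb downstream of the start. The interval without regions measured 271.5 kb, and 10.9% of the 23421 intervals between neighbouring regions of the list are at least as long. Because the depth is unknown, this is a gap in the list and not a measurement of closed chromatin. Of the cell type markers considered, CR2 and FCER2 were the only ones with an hg19 position here. The B-cell label thus had a listed region at 1 of 2 markers, and a region does not measure expression.

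To give the counts a scale, chromosomes 1 to 22 and X were divided into consecutive tiles of the same length as each window. These tiles include unsequenced stretches and are not matched for genes, so the shares are a description. At least 5 regions were found in 2.34% of tiles of the HES1 window's length and in 10.2% of those of the RBPJ window's length. These shares hold for the 50 kb limit, since the HES1 count drops to 3 at narrower limits of 10 and 25 kb. At least 2 were found in 26.2% of tiles for CR2 and in 29.0% for NOTCH1, and at least 1 in 62.9% for NOTCH2. For FCER2, 57.1% of tiles held no region, so an empty window of that size is the usual case in this list. The numbers that the authors gave the regions ran without a skip across all 6 windows, from the last region before to the first after each. Whether the numbers were given before or after the list was filtered is not known. They therefore cannot show whether a region was removed from a window.

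**Figure D3:**
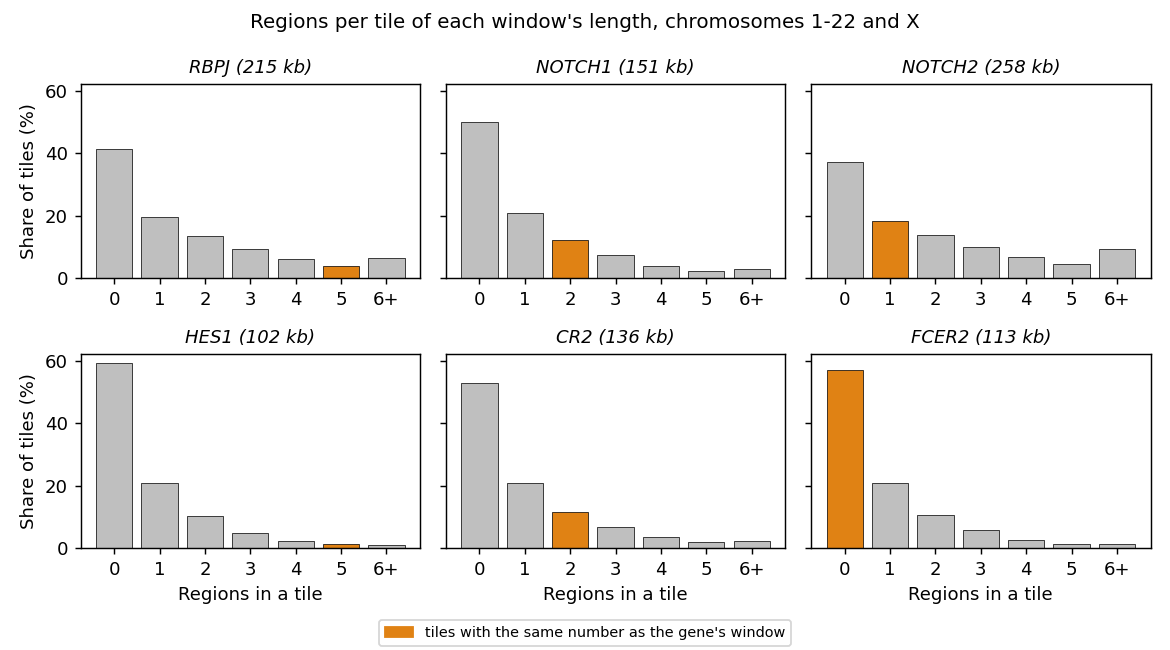
Share of tiles, in percent, by the number of regions they hold, for tiles of the length of each gene's window on chromosomes 1 to 22 and X. The orange bar marks the number found at the gene, which is the tallest bar for FCER2 and lies in the right tail for HES1 and RBPJ.

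Scores of the 15 regions ran from 558 to the cap, and their widths from 355 to 3028 bp. The authors' score is a whole number per region, with a minimum of 541 and a cap of 1000 in this list, and no header or label names its scale. The name of the list carries the letters IDR and 05, which read as an irreproducible discovery rate of 0.05. The usual scaled score at that rate is 540, just under the list's minimum. If it is that score, every listed region passed that rate, whether at the cap or below it. The cap would then mark the lowest rates and would not measure how accessible the regions are. The score was at the cap for 8 of 15 regions (53.3%), against 60.1% of the whole list. These were 3 of 5 at HES1, 2 of 5 at RBPJ, 2 of 2 at NOTCH1, 1 of 2 at CR2 and 0 of 1 at NOTCH2. Of the 4 regions over a start, 2 were at the cap, those of RBPJ and NOTCH1, and of the other 11 regions 6 were. The 7 scores below the cap had a median of 686, against 731.5 in the list.

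The median width was 723 bp, close to the 756 bp of the whole list, whose quartiles were 547 and 1082 bp, and 7 of the 15 were wider than the list's median. At the cap the median was 977.5 bp for these regions and 953 bp for the list, and below it 642 and 556 bp. Regions over a start had a median of 946 bp and the others of 642 bp. These are descriptions of few regions, and regions of 1 locus are not independent.

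**Figure D4:**
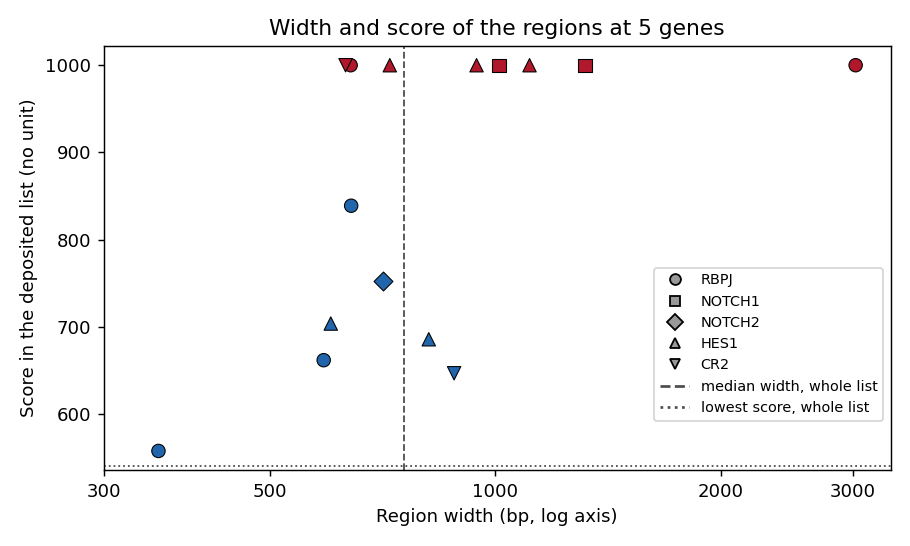
Width in bp (log axis) against the score of the deposited list for the 15 regions at 5 genes, with a dashed line at the list's median width and a dotted line at its lowest score. The RBPJ region over the start stands apart at 3028 bp, and 8 regions lie at the cap of 1000.

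The regions of HES1 lay closest together. A region was counted as having a neighbour if the gap to the nearest other region was no longer than a joining distance. That distance is a single value between 10 and 15 kb, and no regions were merged. The count of members with a neighbour was 7 of 15 at both bounds. A neighbour within the joining distance was thus found for 7 of 15 regions (46.7%), against 42.2% of the list. The share of the list was 37.6% at 10 kb and 45.9% at 15 kb. These were all 5 at HES1 and 2 at RBPJ, where the region over the start lay 6.031 kb from the next upstream. The 2 regions of NOTCH1 stood 61.7 kb apart and those of CR2 39.0 kb apart, against a median interval of 44.1 kb in the list. At the 50 kb limit, the outermost member was the CR2 region whose midpoint lay 39.5 kb from the span. The first regions beyond the limit lay 65.2 kb upstream of HES1 and 73.3 kb upstream of NOTCH2, 678 and 391 bp wide and both at the score cap.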

How the data were processed

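ATAC-seq was performed on 2 cultures of GM12878. The authors deposited 1 list of regions with a score per region and no header, counts or values per library. Per the submitters' processing notes the build is hg19, and the tools, given with no role, include MACS2 2.1.0 and BWA 0.7.13, with bedtools 2.24.0, SAMtools 0.1.19 and Picard 1.92 besides Trim Galore 0.3.3 and CASAVA 1.8.4. The name of the list carries abbreviations that can be read as an irreproducible discovery rate of 0.05 and as filters for mappability, mitochondria and a blacklist, but no label or header spells them out. Whether read ends were shifted for the transposase, and how 1 list was made from both cultures, are not given in the sources used here. These steps can change region edges and which regions are listed.

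Gene spans and strands in hg19 come from the rule that defines the members. The members, gene lists and motifs were chosen with earlier results of these data known. The rule for naming was to describe all 6 genes, and in each locus the region nearest the start, the widest and the lowest-scoring. The start is the span's first base in the direction of the gene, and region positions are 1-based. A region was assigned by its midpoint. Gaps were measured between region edges, and tiles were whole windows counted by midpoint. Chromosome lengths came from circlize 0.4.16. The gene and promoter tables are of GRCh38.p14, so exons, introns and region sequences were not analysed here, and the tables served for names, gene order, gene lengths and promoter letters. Promoters were searched without the bases after the start. The longer EBF1 and NF-kB motifs were searched as well. Calculations used Python 3.11.15, numpy 2.4.6, pandas 2.3.3 and scipy 1.17.1, with matplotlib 3.10.9 for plots. The assignment, gaps and tile counts were tested on simulated data. No test between groups was made. Alternatives were other distance limits, assignment by overlap, the score cap, other joining and start distances, and leaving out each locus.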

Additional observations from a re-analysis of the deposited data

How the results depend on the processing

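Of 33 alternatives for the results over all loci, 29 left the value within its limits and 4 moved it. The limits were a factor of 1.5 for counts, the exact (Clopper-Pearson) 95% binomial interval of the share at the score cap (26.6% to 78.7%), and the binomial interval of the median width (631 to 1011 bp). They treat regions as independent and cover counting error only. All 4 moves were of counts. The limits for the median width and the share at the cap are wide and come from these same 15 regions. That both values stayed within them therefore says little about stability. Counting the gene spans alone left 6 of the 15 regions. With regions at the score cap only, 8 regions, 2 with a neighbour within the joining distance and 2 genes with a region over the start (RBPJ and NOTCH1) were left. Each of these follows from the construction of the setting. Within 2 kb of the start, 5 genes had a region, HES1 being added. On the gene spans alone the share at the cap was 33.3%, against 53.3%, a move of more than 1.5 times that the wide binomial interval still counts as within its limits. Leaving out 1 locus at a time gave a median width of 675 to 848 bp and a share at the cap of 46.2% to 60.0%. Of 36 counts for single loci, 14 moved by more than 1.5 times. On the gene spans alone these were HES1 (1), RBPJ (3), CR2 (1) and NOTCH1 (0), at 10 kb HES1 (3), CR2 (1) and NOTCH1 (1), and at 25 kb HES1 (3) and CR2 (1). At 100 kb it was NOTCH2 (2), and at the score cap HES1 (3), RBPJ (2), CR2 (1) and NOTCH2 (0). FCER2 held 0 regions in every setting, out to 100 kb. No paired analysis was possible because both cultures form a single group and share 1 list, which also means that neither culture could be dropped. With the depth unknown, an interval without regions was not read as closed.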

Other observations

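Other genes of the Notch pathway could be examined by promoter letters only. Of 27 listed genes 21 matched RefSeq, with 26 promoters. The motif GTGGGAA occurred in 3 of these genes, HES4, HES5 and HEYL, which encode repressors of the same family as HES1. In the same search it occurred in 3 of the 26 promoters (11.5%), against 5.43% of all RefSeq promoters. The core TGGGAA occurred in those 3 genes and in LFNG, which encodes a glycosyltransferase that modifies Notch receptors, and in 15.4% of the promoters against 20.8% of all. CCCNNGGG was found in 7 of the 21 genes, among them NOTCH3, NOTCH4, JAG1 and JAG2, in 26.9% of the promoters against 17.1% of all. The ETS motif was found in 19.2% against 19.5%. The longer EBF1 motif occurred in none of the 26 promoters and in none of the 6 genes above, against 1.06% of all promoters. The NF-kB motif occurred in 12 of the 26 (46.2%), against 22.6% of all, and among the 6 genes in NOTCH2 and CR2, once each. Promoters differ in G and C content, which was not matched, and no region of the list was assigned to the 27 genes.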
